A study of Balaenoptera physalus with 6 samples.

Results

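Scattered intergenic CpG sites are the cytosines that the authors listed as differing between whale skin samples with a high and a low organochlorine (OC) concentration, and that lay in no annotated promoter, exon or intron and outside dense clusters of such sites. They were taken from the authors' list of 32682 CpG sites as the entries with no promoter, exon or intron name that did not belong to a chain of 5 or more such sites with gaps of at most 100 bases. The rule left 13289 sites, 40.7% of the list, on 417 scaffolds. Chains counted listed sites only, so a scattered site may lie close to CpG sites that were not listed. Within the list, position and annotation alone placed a site among them. Every listed site, however, had been chosen by the authors on the contrast between high and low OC in the same samples. The sizes and directions of the differences below are therefore descriptions, with no test.

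The study used skin of fin whales (Balaenoptera physalus), with 3 samples labelled high OC, with titles that begin with BPT, and 3 labelled low OC, with titles that begin with BPL. Genomic DNA was read by reduced representation bisulfite sequencing (RRBS), in which the enzyme MspI cuts at CCGG and bisulfite converts cytosine that lacks a methyl group; the methylation level is the percentage of reads that keep the cytosine. The study asked whether methylation differed between the groups and with contaminant load. The labels do not explain the title prefixes, and whatever they stand for cannot be told apart from OC. The labels also do not give the sex, age or sampling date of a whale, or say that each sample came from a different animal, so the spread between samples may be partly technical. The labels call the tissue skin, and methylation at sites between genes does not check that label. Where a mean over samples is given with a second value, that value is the SD over 3 samples of a group.

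In mammals most CpG sites between genes are heavily methylated, whereas sites in CpG islands, many of which mark promoters, are mostly unmethylated. Methylation of intergenic sequence is associated with silencing of repeats, and distant enhancers within it tend to have lower levels. A methylated CpG is copied to both strands at each cell division by the maintenance methyltransferase DNMT1, and TET enzymes start its removal. In bulk skin a level is an average over all cells, so a change in the mix of cells and a change within cells cannot be told apart.

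Slightly more of the scattered sites were lower in high OC than higher. The authors listed 7131 (53.7%) as lower and 6158 (46.3%) as higher. In the authors' deposited table the smallest listed difference was 10 percentage points and the largest p, unadjusted, was 0.05. On the single stretch of scaffold for which unselected sites were analysed, the same call was made at 2.00% of 651 CpG sites in either direction, at 1.23% as higher and at 0.768% as lower. Because the list was made on this contrast, nothing is read from the members' counts against those shares. Among all listed CpG sites 50.8% were higher. The share of higher sites was 49.5% of 11189 intron sites, 53.5% of 4642 exon sites, 65.8% of 2713 promoter sites and 74.9% of the 849 intergenic sites in dense chains.

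The level in each sample shows how close the samples of a group were. Over the sites listed as higher, mean levels were 68.1%, 68.5% and 67.7% in the high OC samples, against 45.8%, 46.6% and 46.9% in the low OC samples. Over the sites listed as lower, they were 50.1%, 50.5% and 51.3% in the high OC samples, against 72.5%, 74.4% and 72.6% in the low OC samples. The groups stood apart in both sets, as the choice of the sites requires. The higher sites averaged 68.1% ± 0.389 in high OC and 46.4% ± 0.549 in low OC, and the lower sites 50.6% ± 0.599 in high OC and 73.2% ± 1.07 in low OC (SD, n = 3 each). Over all 13289 sites the opposite directions nearly balanced, with 58.7% ± 0.247 in high OC and 60.8% ± 0.689 in low OC.

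**Figure D1:**
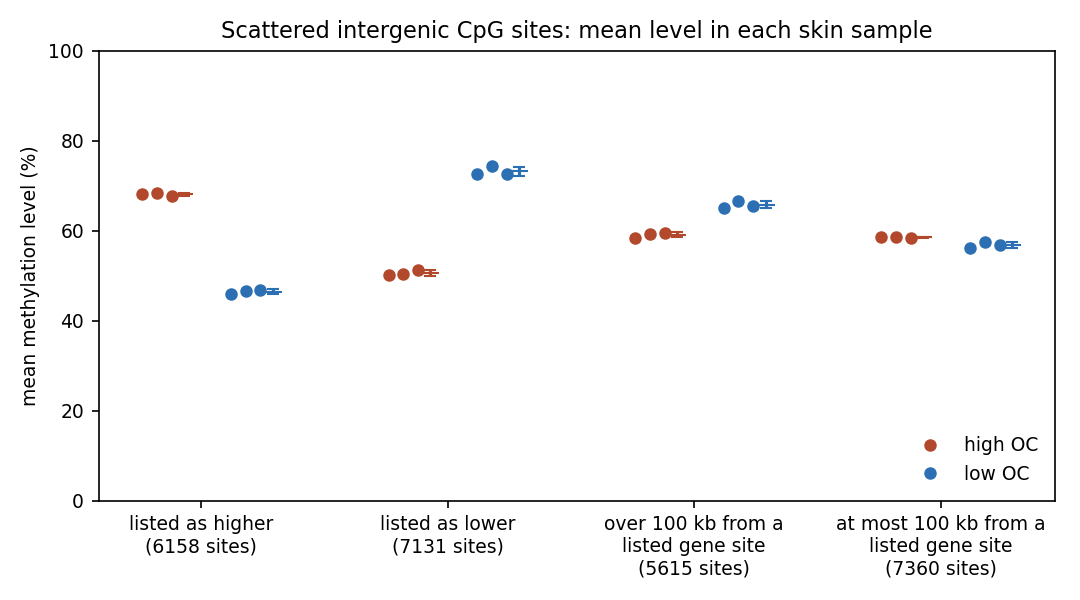
Mean methylation level in percent (vertical axis) in each skin sample for 4 sets of scattered intergenic CpG sites; points are samples, and the bar beside them gives the group mean and SD (n = 3). High OC samples sit at 67.7% to 68.5% over the higher sites and at 50.1% to 51.3% over the lower sites, and far from listed gene sites they sit at 58.5% to 59.5%, below the low OC samples at 65.1% to 66.6%.

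The differences were mostly of moderate size, and few sites lay at opposite extremes in the groups. The median absolute difference was 20 percentage points. The authors classed 1791 of the sites (13.5%) as strongly different, and 1945 had a deposited difference, rounded to whole points, of at least 33 points; 247 differed by at least 50 points and 14 by at least 75. At 13216 of the sites (99.5%) every sample of one group lay above every sample of the other, where 4.92% of the unselected sites did so; the listing favours such sites. The gap between the nearest samples of opposite groups had a median of 8 points, and at 1033 sites it was at least 20 points. At 63 sites the samples reached from 5% or less to 95% or more. No sample stood out as the one closest to the other group: each was the closest of its group at 26.3% to 37.5% of the sites where a single sample was.

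Higher and lower sites differed in their levels in low OC, as the choice of the sites in part requires. A listed site at 100% in every low OC sample can only be lower. One at 0 in every low OC sample can only be higher. Among the lower sites, 4059 (56.9%) had a low OC mean of at least 80%, against 1195 (19.4%) of the higher sites. At 1052 of the lower sites all 3 low OC samples were at 100%. Among the higher sites, 3083 (50.1%) had a high OC mean of at least 80%, and at 807 all 3 high OC samples were at 100%, while 1800 (29.2%) had a low OC mean under 20%. A smaller number were unmethylated throughout a group: the 3 high OC samples were all at 0 at 445 of the lower sites, and the 3 low OC samples were all at 0 at 500 of the higher sites. By mean level over the 6 samples, 53.6% of sites under 20% were higher in high OC, 55.3% from 20% to 40%, 45.5% from 40% to 60%, 39.0% from 60% to 80% and 45.5% from 80% to 100%. Sites at 60% to 80% thus held the smallest share of higher sites among these 5 ranges.

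Mean levels of scattered sites were compared with those of promoter, dense intergenic and intron sites; exon sites, at 66.1%, were not tested. Their median level was 68.8%, and 4632 of them (34.9%) had a mean level of at least 80%. The mean level over scattered sites, 59.8% ± 1.23 (SD over 6 samples), was 24.0 points above that of promoter sites, 35.8% ± 3.72, and was higher in 6 of 6 samples, by 19.2 to 28.8 points. It was 16.2 points above that of dense intergenic sites, 43.6% ± 9.22, again in 6 of 6 samples, by 5.48 to 26.5 points; the smaller gaps were those of the high OC samples, in which the dense sites averaged 51.9% ± 1.21, against 35.2% ± 1.30 in low OC. Against intron sites, at 64.6% ± 0.542, the difference was -4.82 points and negative in 6 of 6 samples. Each of these differences had an adjusted p of 0.0375 in an exact two-sided permutation test that flipped the sign of the 6 paired differences, adjusted by Benjamini-Hochberg over 6 comparisons; the raw p of 0.03125 is the smallest such a test can give. Dense and scattered sites were split by counting listed sites only. The tests against dense sites, here and for coverage below, thus depend on the listing. The difference from introns was smaller with at least 20 reads in every sample, at -0.639 points (exact permutation p = 0.562). With sites weighted by coverage it was -2.06 points (exact permutation p = 0.25). That weighting leans on a few scattered sites of up to 7989 reads, where no intron site passed 300 reads.

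**Figure D2:**
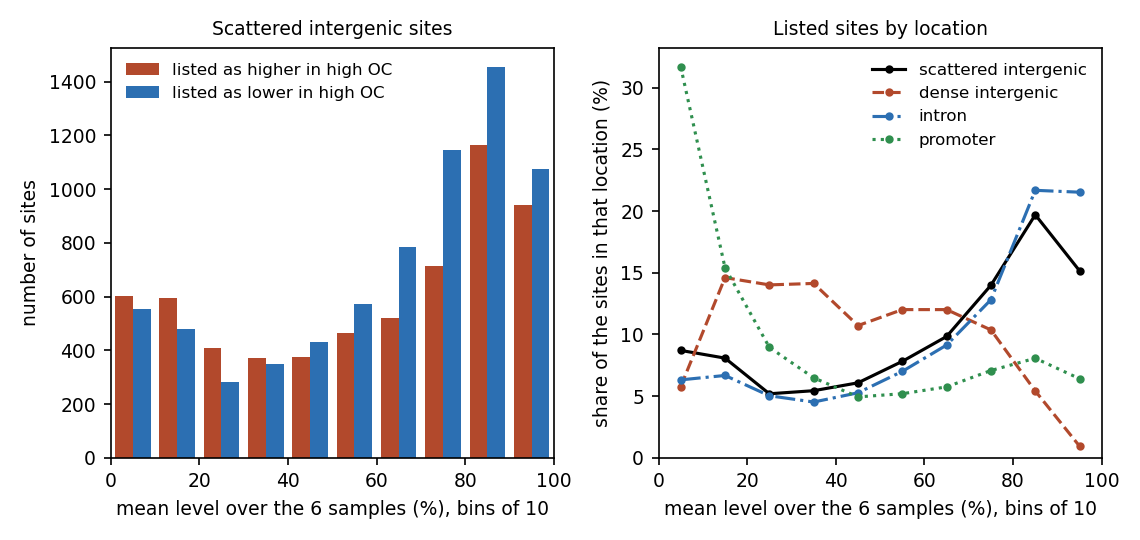
Mean level over the 6 samples in bins of 10 percentage points (horizontal axes): on the left the number of scattered intergenic sites listed as higher or lower in high OC, on the right the share of the sites of each location. Scattered sites pile up at high levels, with a median of 68.8%, as intron sites do (75%), while dense intergenic sites (41%) and promoter sites (22.7%) sit lower.

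Coverage was modest and even across samples. The median per site was 14, 12 and 13 reads in the high OC samples, against 12, 12 and 12 in the low OC samples, and no listed site had fewer than 5 reads. At least 10 reads in every sample were available at 4982 of the scattered sites (37.5%) and at least 20 at 1082. The median coverage of scattered sites, 12.5 reads on average over samples, differed by -3 reads from that of dense intergenic sites and by -1.33 reads from that of promoter sites (adjusted p = 0.0375 for each in the same exact permutation test); against intron sites it differed by 0.167 reads (exact permutation p = 1), a difference that does not pass. At 1531 of the scattered sites (11.5%) the coverage was an even number in all 6 samples; whether reads or read pairs were counted there was not tested, and counting intervals may be too narrow at such sites.

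The direction of the difference varied with distance from listed gene sites. Only listed sites carry gene names, so distance was measured to the nearest listed CpG site on the same scaffold with a promoter, exon or intron name; the gene itself may reach closer. The median distance was 74553 bases. The share of sites higher in high OC was 53.0% of 1601 sites within 10000 bases, 55.8% of 3616 sites from there to 50000 bases, 50.4% to 100000 bases, 43.5% to 200000 bases, 35.6% to 500000 bases, 34.9% to 1000000 bases and 29.3% of the 566 sites beyond. On 136 scaffolds no listed site carried a gene name, and 29.9% of the 314 scattered sites there were higher. Beyond 100 kb the share of higher sites was thus below 50% in every distance class.

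**Figure D3:**
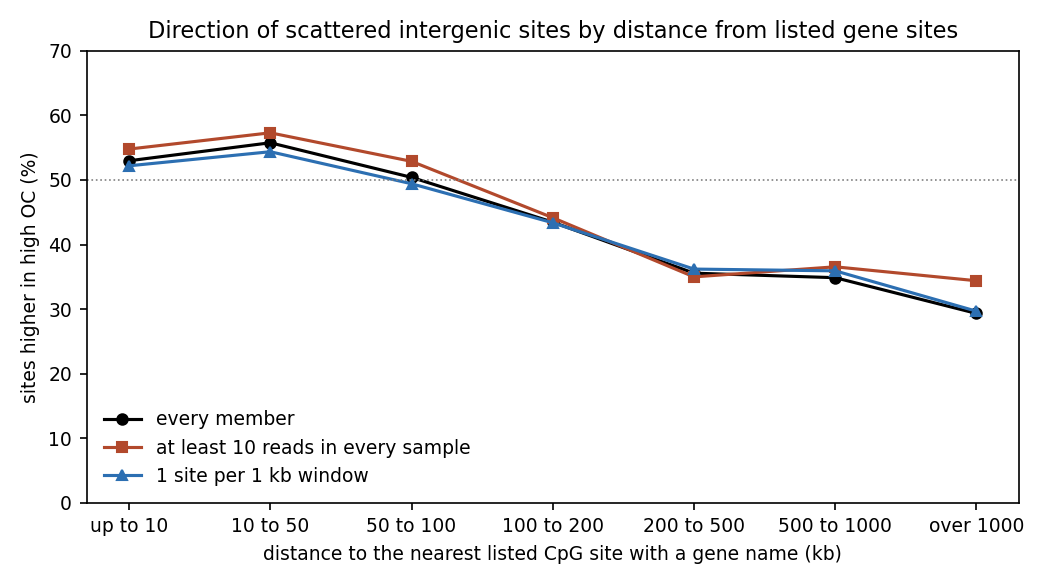
Share of scattered intergenic sites that were higher in high OC (vertical axis, percent) by distance to the nearest listed site with a gene name (horizontal axis, kb, classes of unequal width); lines show every site, sites with 10 or more reads per sample, and 1 site per window of 1 kb. The share is 53.0% in the nearest class and 29.3% in the farthest, and the lines for deeper sites and for single sites per window run close to that for every site.

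In the sample means, far and near sites differed in the low OC samples and hardly in the high OC samples. At the 5615 sites over 100 kb from a listed gene site, the level was 58.5%, 59.2% and 59.5% in the high OC samples, against 65.1%, 66.6% and 65.6% in the low OC samples. At the 7360 sites at most 100 kb away, the high OC samples had 58.6%, 58.7% and 58.4%, against 56.2%, 57.5% and 56.8% in the low OC samples. Far and near sites thus had almost equal levels within each high OC sample, with differences of -0.154, 0.535 and 1.10 points, whereas far sites were 8.93, 9.16 and 8.77 points above near sites in the low OC samples. The far-minus-near difference averaged 0.495 ± 0.630 points in high OC and 8.95 ± 0.194 points in low OC. Every site was listed for a difference between the groups. This gap between the groups therefore largely restates the shares of higher sites, 37.8% far and 53.6% near, and is no separate finding. No p is given, since the sites were chosen on this contrast, and 3 against 3 samples could not go below 0.1.

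The contrast between far and near sites was spread over scaffolds and appeared in every range of level but the lowest. Of 58 scaffolds with at least 20 far and 20 near scattered sites, 48 had a smaller share of higher sites among the far ones, with a median difference of -10.2 points. Among sites with a mean level under 20%, the share higher was 53.2% far from gene sites and 53.8% near them. Among sites at 20% to 40% it was 48.2% far and 60.2% near, at 40% to 60% it was 33.4% far and 57.4% near, at 60% to 80% it was 28.6% far and 50.4% near, and at 80% to 100% it was 37.9% far and 51.8% near. Only the range under 20% lacked the contrast among these 5 ranges. Dense intergenic sites had 62.1% higher of 243 far sites and 80.5% of 596 near sites, so a smaller share far from gene sites was seen there too. Those sites lie in chains, and 98.5% of 723 neighbouring pairs at most 100 bases apart shared a direction. The dense shares thus rest on far fewer chains than sites.

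Scaffolds differed in direction. The 37 scaffolds with at least 100 scattered sites held 53.3% of all of them, and their share of higher sites had a median of 46.5%. The lowest share was on NW_006729679_1, where 17 of 117 sites were higher (14.5%). There the mean level over the scattered sites was 59.7%, 61.7% and 61.3% in the high OC samples, against 78.5%, 81.5% and 78.3% in the low OC samples. The highest share was on NW_006726998_1, where 80 of 118 sites were higher (67.8%), at 63.2% ± 0.973 in high OC and 54.4% ± 0.697 in low OC. On NW_006729679_1 the listed gene sites were mostly lower too, with 23.7% of 131 higher, though 48.1% of its 27 dense intergenic sites were higher. This was less so on the scaffolds of next lowest share. Of the listed gene sites, 56.6% of 83 were higher on NW_006725832_1, 51.7% of 149 on NW_006733345_1 and 46.25% of 80 on NW_006729678_1. The scaffolds with the smallest shares lay far from listed gene sites, but distance did not order the scaffolds fully. The median distance to a listed gene site was 178292 bases on NW_006729679_1 and 23499.5 bases on NW_006726998_1. It was 155688 bases on NW_006725832_1 (23.4% higher), 181562 bases on NW_006733345_1 (26.3%) and 214234 bases on NW_006729678_1 (30.8%). Against that order, it was 237133 bases on NW_006730789_1, where 49.5% of 111 sites were higher, and 132316 bases on NW_006724459_1, where 57% of 100 were. Scaffold positions are starts as deposited (genome build: not given in the sources used here).

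Neighbouring sites tended to share their direction, most of all within 100 bases. Of 2577 pairs of consecutive scattered sites at most 100 bases apart, 2270 (88.1%) were listed in the same direction, and such sites can lie on the same reads. The share was 67.1% of 1020 pairs from 100 to 1000 bases apart, 57.1% to 10000 bases, 57.8% to 100000 bases, 55.6% to 1000000 bases and 53.0% beyond, where 50.3% of all possible pairs had the same direction. Agreement was thus high within 100 bases, intermediate to 1000 bases and little above that of all possible pairs beyond. Intron sites gave 89.7% at most 100 bases apart and 66.2% from 100 to 1000 bases. Of 245 pairs on the 2 strands of a single CpG, 214 (87.3%) had the same direction, and their mean levels differed by a median of 4.83 points. These pairs come from the same samples, but each strand is read separately.

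**Figure D4:**
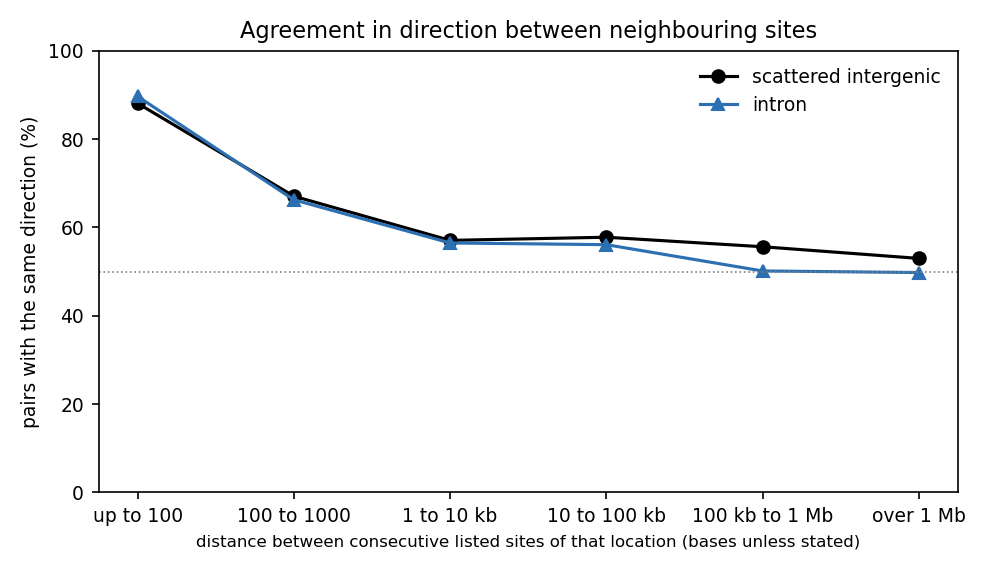
Share of consecutive listed sites with the same direction (vertical axis, percent) by the distance between them (horizontal axis, classes of unequal width), for scattered intergenic sites and intron sites. The share is 88.1% for scattered sites at most 100 bases apart and 53.0% beyond 1000000 bases, against 89.7% and 49.8% for intron sites.

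Most of the sites stood alone. Of the 13289, 8731 had no other such site within 100 bases, 3020 were in pairs, 1038 in chains of 3 and 500 in chains of 4; the share higher was 45.9%, 44.9%, 52.7% and 49.0% in that order. The 125 chains of 4, just inside the rule, were all higher in 57 cases, all lower in 59 and mixed in 9. The 56 chains of 5, just outside it, were all higher in 30 cases, all lower in 22 and mixed in 4, and 57.5% of their sites were higher. The median level was 60.1% in chains of 4 and 46.4% in chains of 5. Chains on either side of the limit thus overlapped in direction and differed in level.

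The chains of 4 with the largest mean differences had every site in the same direction. On NW_006729679_1, starts 791407 to 791445, the chain averaged 47%, 32.5% and 30% in the high OC samples, against 93%, 80.8% and 94.5% in the low OC samples. Its nearest listed gene site, 192122 bases away, was in DLGAP2, which encodes a scaffold protein of the postsynaptic density. On NW_006725909_1, starts 9992980 to 9993011, the chain averaged 25.5%, 39.0% and 31.8% in high OC and 69.2%, 98.2% and 78% in low OC, 173074 bases from a site in EMX2, a homeobox factor of forebrain and urogenital development. On NW_006725754_1, starts 7511323 to 7511388, the direction was the opposite, with 68.2%, 74.5% and 81% in high OC and 9.25%, 21.8% and 46.8% in low OC, 29219 bases from a site in HTR3A, a subunit of the serotonin-gated ion channel. The groups did not overlap in any of these chains, though the low OC samples of the last spanned a wide range. The 3 leading chains of 5, outside the rule, lay nearest to sites of CACNG4 (29.5% ± 19.0 in high OC and 88.3% ± 14.5 in low OC), HOXB1 (88.5% ± 3.01 in high OC and 32.9% ± 26.95 in low OC) and TOP1 (20% ± 2.36 in high OC and 72.5% ± 7.58 in low OC). The roles given for genes here and below are those known from human and mouse.

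Scattered sites with at least 10 reads in every sample and groups that did not overlap numbered 2352 higher and 2601 lower. The 10 with the largest difference in each direction, 1 per scaffold, differed by 54 to 95 points where higher and by -61 to -97 points where lower. Of those, only 1 higher and 3 lower sites had no other scattered site within 100 bases. The higher site at the top was NW_006734456_1, start 1425212. Its level was 86%, 100% and 100% in the high OC samples, at 28, 20 and 27 reads, against 0 in each low OC sample, at 29, 22 and 32 reads. A count of 0 at those depths allows levels of up to 10.3%, 13.6% and 9.38% (3 reads of the total), and the 95% Wilson interval of the high OC sample at 86% was 68.5% to 94.3%. The nearest listed gene site, 71885 bases away, was in the promoter of PDCL3, a phosducin-like protein, and was listed as higher by 11 points.

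The lower site at the top was NW_006725687_1, start 21360525. It was at 0 in each high OC sample, at 22, 18 and 29 reads, against 100%, 92% and 100% in the low OC samples, at 10, 25 and 16 reads. The counts of 0 allow levels of up to 13.6%, 16.7% and 10.3%. The nearest listed gene site, 136221 bases away, was in an exon of CCND1, which encodes cyclin D1, a driver of the G1 phase of the cell cycle, and that site was listed as higher by 15 points. An intergenic site and its nearest gene site thus had opposite directions here.

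Other leading higher sites varied more among the samples of a group. At NW_006728129_1, start 5568698, the level was 42%, 58% and 91% in high OC, against 0 in each low OC sample; the nearest gene site, in an intron of RBM38, an RNA-binding protein, lay 75609 bases away. At NW_006732234_1, start 12311684, the level was 80%, 100% and 100% in high OC and 0, 58% and 0 in low OC, 76005 bases from a promoter site of REM1, a small GTPase. At NW_006726298_1, start 445066, the high OC samples had 79%, 80% and 71%, against 0, 7% and 57% in the low OC samples, 7274 bases from a promoter site of HOXB4, a homeobox factor of axial patterning. In the last 2 of these, 1 low OC sample lay far above the others of its group. The remaining higher sites of the 10 lay nearest to listed sites of PSMG3, PCBP3, DLGAP2, KIAA1462, CPZ and LOC103000749, at 1800 bases for PCBP3, which encodes a poly(rC)-binding protein, to 752521 bases for KIAA1462, a protein of endothelial junctions.

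The other leading lower sites averaged up to 30.7% in high OC, and only some were at 0 in every high OC sample. At NW_006725410_1, start 2844124, every high OC sample was at 0, against 36%, 67% and 100% in the low OC samples, 199015 bases from an intron site of COL6A5, a collagen VI chain. At NW_006725909_1, start 9992996, a member of the chain near EMX2, every high OC sample was at 0, against 27%, 100% and 80% in low OC. At NW_006726565_1, start 937535, the level was 38%, 0 and 50% in high OC and 93%, 100% and 100% in low OC, 140522 bases from an intron site of ARHGAP22. Low OC samples were thus tightly grouped at the last site and widely spread at the first. The others lay nearest to listed sites of DLGAP2, PAX5, SLC7A1, PLXNC1, LOC103007017 and SFSWAP. PAX5, the B-cell lineage factor, was closest at 9426 bases, and PLXNC1, a semaphorin receptor, farthest at 1156799 bases.

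In windows of 100 kb, scattered sites were thinly spread, but in some windows every site had the same direction. Of 5238 windows with a scattered site, 2673 held 1 site and 187 held at least 10; among the 187, every site was lower in 12 and every site higher in 3. The window with most sites, on NW_006725355_1 from 4802237 to 4896926, held 41, of which 19 were higher, with means of 66.7% ± 1.46 in high OC and 68.6% ± 1.52 in low OC that overlapped between groups. The second, on NW_006726998_1 from 800337 to 898037, held 34, of which 25 were higher (54.3% ± 2.40 in high OC, 44.1% ± 1.47 in low OC). The third, on NW_006725909_1, had 10 of 31 higher, and another on NW_006725355_1 had 12 of 26. The one on NW_006729790_1 had 5 of 28 (69.7% ± 1.45 in high OC, 84.2% ± 1.27 in low OC). None of these 5 windows held a listed site with a gene name.

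The windows with a single direction were picked out after their values were seen. The largest all-lower one, on NW_006733345_1 from 8704944 to 8788947, had 24 sites at 65.7%, 68.5% and 64.7% in the high OC samples, against 88.6%, 91% and 89.6% in the low OC samples, and no listed gene site. An all-higher window on NW_006726298_1 from 403394 to 494950 held 13 sites and listed sites of HOXB1, HOXB4, HOXB5 and HOXB6. Its levels were 78%, 75.2% and 62.7% in high OC and 15.8%, 17.2% and 48.5% in low OC, so 1 low OC sample lay nearest to the high OC samples. Another all-higher window, on NW_006725909_1 from 9465971 to 9498227, held 10 sites beside listed sites of VAX1, a homeobox factor of the eye and forebrain, at 45.7%, 46.0% and 45.6% in high OC and 21.5%, 23.3% and 25.7% in low OC. The third, on NW_006728129_1 from 5503899 to 5599432, held 11 sites at 78.3% ± 9.02 in high OC and 35.7% ± 2.79 in low OC, and no listed gene site.

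Genes near scattered sites were counted where the nearest listed gene site lay within 50 kb, which held for 5217 sites (39.3%) and 1906 gene names. A scattered site had the direction of its nearest gene site in 53 of 80 cases within 1000 bases (66.2%) and in 52.1% of 7280 cases from there to 100 kb. The names with most scattered sites were BAI1, an adhesion receptor, with 8 higher and 15 lower, and PRDM16, a regulator of brown fat identity, with 10 higher and 13 lower. Several more names with many sites were mixed: TMEM18 had 11 higher and 9 lower, ELFN1 9 and 9, WNT7B 9 and 8, and ADRA2C 6 and 10. The names that follow were among the most one-sided of those with many sites, so they are not typical. All 16 sites nearest to TMEM52, a transmembrane protein gene, were higher. They stood at 79.2%, 79.2% and 81.2% in the high OC samples, against 53.7%, 54.8% and 57% in the low OC samples. Of 17 sites nearest to RASA3, a Ras GTPase-activating protein, 14 were higher (65.3% ± 1.82 in high OC, 48.6% ± 1.75 in low OC). Of 15 nearest to FAM19A5, a secreted chemokine-like protein, 13 were lower (70.9% ± 1.98 in high OC, 85.6% ± 1.54 in low OC).

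Developmental transcription factors, whose genes often lie in broad unmethylated domains, had 150 scattered sites within 50 kb, at 36 of the 63 genes of that list, with 89 higher and 61 lower and a median difference of 11.5 points. Of all 5217 scattered sites within 50 kb, 2864 (54.9%) were higher and the median difference was 11 points, and the counts of this and the other lists stand beside that share. The sign of a median follows whichever direction is more numerous. Of 11 sites nearest to TLX1, a homeobox factor of spleen development, 9 were lower (21.2% ± 2.43 in high OC, 41.8% ± 6.10 in low OC). Of 11 nearest to HAND2, a factor of heart and limb development, 10 were higher (16.5% ± 1.15 in high OC, 7.61% ± 1.29 in low OC). At both genes the sites mostly shared a direction, whereas the list as a whole did not. PAX5 had 6 higher and 4 lower sites, and GATA4, a factor of heart and gut development, 5 higher and 3 lower, with overlapping groups (13.5% ± 1.69 in high OC, 13.3% ± 2.03 in low OC).

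The list for contaminant response held few sites, and the list for metabolism held more. Lipid and insulin genes had 44 scattered sites, 14 higher and 30 lower, with a median difference of -13 points; 20 of them were nearest to RXRA, the retinoid X receptor, of which 6 were higher and 14 lower (34.7% ± 2.43 in high OC, 40.1% ± 1.10 in low OC). PPARA, the fatty acid receptor, had 3 higher and 6 lower (62.6% ± 4.44 in high OC, 69.2% ± 0.740 in low OC). ACACA had 2 higher and 2 lower, CPT1A 2 higher and 1 lower, and LRP5 1 higher and 2 lower. Dioxin receptor and xenobiotic genes had 4 scattered sites, 1 higher and 3 lower (median difference -12 points). Both sites nearest to AHRR, the repressor of the dioxin receptor, were lower, with 86%, 83.5% and 81% in the high OC samples, against 100%, 100% and 96.0% in the low OC samples. The other 2 lay nearest to ABCC4, an export pump (93.3% ± 5.86 in high OC, 77.3% ± 7.37 in low OC), and POR, the electron donor of cytochrome P450 enzymes (4.33% ± 3.79 in high OC, 17.3% ± 2.52 in low OC).

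Imprinted genes, of which only the copy from one parent is active, had 28 scattered sites, 15 higher and 13 lower, with a median difference of 13.5 points. IGF2, a fetal growth factor, had 6 higher and 4 lower of 10 (41.5% ± 1.70 in high OC, 31.9% ± 3.21 in low OC), and IGF2R, which clears it, 3 higher and 1 lower (62.1% ± 4.58 in high OC, 43.4% ± 3.19 in low OC). CDKN1C, an inhibitor of the cell cycle, had 3 higher and 2 lower (44.1% ± 5.44 in high OC, 41.2% ± 1.40 in low OC). KCNQ1, a potassium channel, had 2 higher and 3 lower (32.8% ± 3.86 in high OC, 35.3% ± 4.11 in low OC), and ZFAT, a zinc finger protein, 1 higher and 3 lower (38.2% ± 3.62 in high OC, 54.7% ± 6.36 in low OC). The imprinted genes thus had no common direction. Axon and synapse genes had 26, 9 higher and 17 lower (median difference -14 points), with all 3 sites lower at DSCAM, a cell adhesion molecule of neurons (31.3% ± 2.19 in high OC, 59.4% ± 2.99 in low OC), and all 3 higher at EPHB2, an ephrin receptor (37.2% ± 3.34 in high OC, 7.11% ± 6.85 in low OC). The sites at a related receptor had the opposite direction: all 3 sites at EPHB1 were lower (71.8% ± 4.55 in high OC, 91.9% ± 2.83 in low OC). PTPRN2 had 4 higher and 3 lower sites, and both at DLGAP2 were lower.

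Markers of the cell types of skin had few scattered sites near them. Keratinocyte markers had 6, 2 higher and 4 lower (median difference -12.5 points), of which the 3 at KRT80, a keratin of differentiating epithelium, were all lower (37.1% ± 4.48 in high OC, 56.2% ± 7.03 in low OC), as was the site at SFN, the epithelial protein stratifin (89.7% ± 1.53 in high OC, 100% in each low OC sample). The sites at PKP1 (91.3% ± 15.01 in high OC, 52.7% ± 13.0 in low OC) and PKP3 (22.3% ± 10.5 in high OC, 3% ± 5.20 in low OC), which encode plakophilins of cell junctions, were higher. Fibroblast and vessel markers had 11, 9 higher and 2 lower (median difference 21 points), with all 5 at COL6A1, a collagen VI chain, higher (73.3% ± 4.11 in high OC, 48.2% ± 2.91 in low OC), 3 higher and 1 lower at ELN, and 1 of each direction at COL6A2. Melanocyte markers had 1, at KIT, which was lower (7.67% ± 2.08 in high OC, 17.7% ± 4.51 in low OC), and immune cell markers had 0. Intergenic sites near a marker do not measure how many cells of that type a sample held, and their part in the differences was not tested.

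The sites with most reads were all lower in high OC. At 27 scattered sites on 13 scaffolds the median coverage was at least 500 reads, against 12 to 14 reads per sample over all scattered sites, and all 27 were lower, by 10 to 18 points. Their mean level was 49.7%, 55.0% and 55.6% in the high OC samples, against 64.5%, 68.4% and 65.8% in the low OC samples, and the groups met or overlapped at 1 of the 27 sites. Of another 27 sites with a median of 200 to 500 reads, 23 were lower. Dense intergenic sites held 5 of at least 500 reads, all lower and on 1 scaffold, and intron, exon and promoter sites held 0. Of the 27, 19 lay within the first 100 kb of their scaffold, several of them on the same scaffold. The same share over all scattered sites was not computed, so nothing is read from that count.

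**Figure D5:**
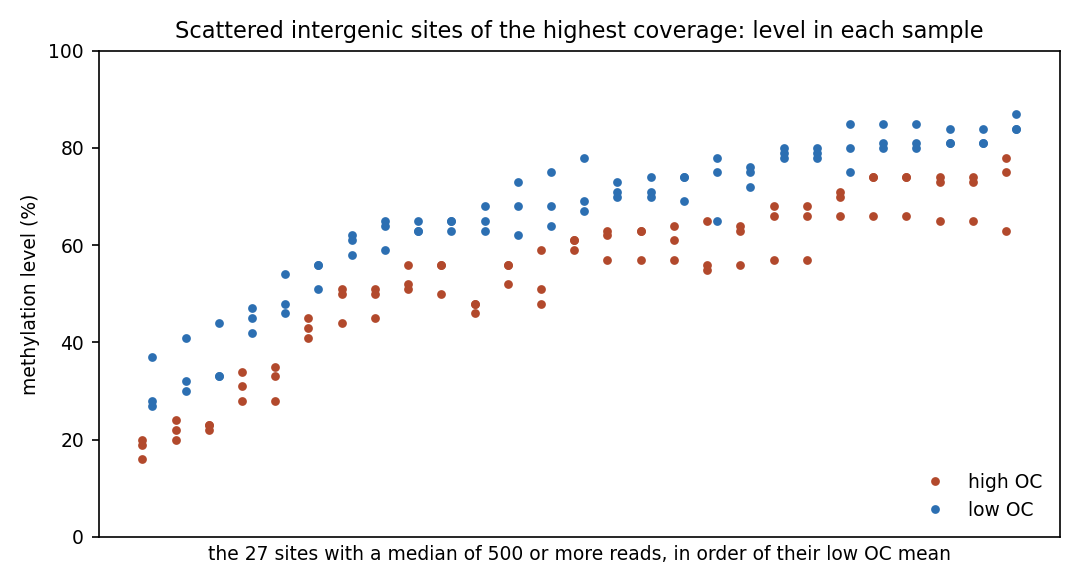
Methylation level in percent (vertical axis) in each sample at the 27 scattered intergenic sites with a median of at least 500 reads, ordered along the horizontal axis by their low OC mean; each point is 1 sample. High OC samples lie below low OC samples, with group means of 53.4% ± 3.27 and 66.2% ± 1.98 over the sites.

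Several of these deep sites carried near-copies of the same values. On NW_006732212_1, starts 274 and 1164, which lie 890 bases apart, had 57%, 68% and 66% in the high OC samples, against 78%, 80% and 79% in the low OC samples, at both positions. Coverage at the first was 7980 to 7989 reads in all 6 samples; whether a limit on depth was applied was not tested. On NW_006727631_1, starts 6283 and 7172, 889 bases apart, shared 66%, 74% and 74% in high OC and 81%, 80% and 85% in low OC, and their reads differed by at most 0.0839%. In all, 8 sites formed 8 pairs with levels within 2 points and reads within 15%. The labels do not say how reads from repeated sequence were placed, and whether these sites share reads was not tested. With 1 site taken per scaffold, all 13 were lower. On the stretch of unselected sites, 7 neighbouring CpG sites between 595931 and 595978 had 1032 to 1493 reads, and their differences ran from -6 to 0 points, with none listed.

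That stretch, on NW_006724458_1 from 51548 to 1103801, placed 9 scattered sites among 651 unselected ones, with 7 higher and 2 lower. At start 697272, the level was 67%, 62% and 70% in the high OC samples, against 93%, 93% and 100% in the low OC samples. At start 730131 the high OC samples had 93%, 86% and 90%, against 100% in each low OC sample. Both lower sites were thus heavily methylated in low OC. The higher sites included 5 close together, from 818227 to 818388, whose group means were 54.7% to 86.3% in high OC and 30.7% to 68.7% in low OC. The other higher sites were at 706738, with 97.3% ± 4.62 in high OC and 79% ± 10.4 in low OC, and at 822292, with 34.0% ± 6.56 in high OC and 21.7% ± 3.51 in low OC. Over all 651 unselected sites high OC samples averaged 41.6% and low OC samples 40.4%.

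Cytosines outside CpG gave a second readout at a few of these places. The authors also listed 1742 sites in the CHG context and 3216 in the CHH context, where H is any base but G. Within 100 bases of a listed CHG site lay 227 scattered sites (1.71%), and 173 of them (76.2%) had its direction. Within 100 bases of a listed CHH site lay 350 (2.63%), and 258 (73.7%) had its direction. The CHG sites had a median level of 29.5% and the CHH sites of 9.08%. Such neighbours can lie on the same reads and were chosen by the authors on the same contrast.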

How the data were processed

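RRBS libraries of 6 fin whale skin samples (3 high OC, 3 low OC) were made after MspI digestion and run on an Illumina HiSeq, per the labels. The submitters' processing notes name Bismark. Build, annotation and filters: not given in the sources used here. Per the file headers, the authors deposited a methylation level per site and sample as a fraction, coverage as a count of reads, the difference between group means as a fraction and a p-value. An equal-variance two-sample test on the ratio of methylated to all reads returned the deposited p-value at 99.6% of listed CpG sites (within 1% of the value), so it is not adjusted for the number of sites. Levels matched whole reads within 1 point at 100% of values. At most 6.76% of listed sites had identical level and coverage in any 2 samples, so no sample was counted as a copy.

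From these files, sites were grouped by position and annotation, levels were averaged over sites in each sample, and locations were compared over the 6 samples by an exact two-sided sign-flip permutation test. A listed site was placed by the first entry present among promoter, exon and intron. The members, gene lists and rules were chosen with earlier results of these data known. Named sites had at least 10 reads in every sample and groups that did not overlap, ranked by absolute difference, 1 per scaffold, 10 per direction; beside them the leading 3 chains of 4 and of 5, the 5 windows with most sites, every member on the unselected stretch, and up to 5 genes a list were eligible; a gene of these is not reported here. The table of all tested sites was analysed for 1 stretch only; the rest was not analysed here. Intervals are 95% Wilson intervals, and a count of 0 allows 3 reads of the total; both cover counting error only, since no molecular identifiers are given. Of 1906 neighbouring gene names, 80.1% were found as symbols or synonyms in RefSeq's table for assembly mBalPhy2.hap1.1, from which no coordinate was taken. The steps were tested on simulated data. Python 3.11.15, numpy 2.4.6, scipy 1.17.1, pandas 2.3.3 and matplotlib 3.10.9 were used. Alternatives were other coverage minimums, difference sizes, windows, chain sizes, weightings and distances, and each sample left out.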

Additional observations from a re-analysis of the deposited data

How the results depend on the processing

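Of 125 alternatives, 66 left their result much as it was. For a share this meant staying within its 95% interval over sites, and for a test staying on the same side of 0.05. The interval gave each site its own vote, although 88.1% of neighbours at most 100 bases apart shared a direction, so it may be too narrow. It ran from 45.5% to 47.2% for the 13289 scattered sites, but from 87.2% to 100% for the 27 deep sites. For shares, the counts of alternatives by this rule are therefore descriptions only. In 25 a share or a number of sites moved further, in 33 a test lost its call, and in 1 a test gained one. None turned a direction round. The distance comparison, the deep sites and their alternatives were added after the data were seen. The share of scattered sites higher in high OC, 46.3%, was 47.6% with at least 10 reads in every sample, 44.1% at differences of at least 33 or of at least 50 points, 47.6% when only chains of 10 or more were left out, and 44.8% to 47.7% with each sample left out. Single sites numbered 8731. Against intron sites the mean level lost its call with at least 20 reads (-0.639 points, exact permutation p = 0.562) and with coverage weighting (-2.06 points, exact permutation p = 0.25); the mean of capped coverage against introns passed (0.965 reads, exact permutation p = 0.03125), and median coverage against promoters at 1 site per 1 kb did not (-0.833 reads, exact permutation p = 0.0625). With a sample left out, the test cannot go below 0.0625, and the difference was 14.15 to 18.35 points against dense, -5.00 to -4.58 against intron and 23.0 to 24.96 against promoter sites, and -3.2 to -2.8 and -1.4 to -1.2 reads against dense and promoter sites. Neighbours at most 100 bases apart shared direction at 92.9% with at least 10 reads and 98.0% at 33 points. The share higher over 100 kb from gene sites, 37.8%, was 42.1% with at least 20 reads, 39.4% at 1 site per 100 kb, 41.2% beyond 50 kb, 34.4% beyond 200 kb, 30.7% at 33 points, 40.2% without the 5 scaffolds of lowest share, and 35.5% to 38.6% with a sample left out. The share near them, 53.6%, was 55.4% with at least 10 reads, 54.9% within 50 kb, 51.4% within 200 kb, 57.6% at 33 points, and 52.3% to 55.2% with a sample left out. All deep sites stayed lower with each sample left out, over 8 to 21 sites, but groups that did not overlap at 26 of the 27 fix that direction. The cause of these shifts was not tested. Groups that do not overlap, as at 99.5% of the scattered sites, keep their direction when a sample is removed. The shares with a sample left out therefore show only which sites still met the listing criteria. Those sites had been chosen by the authors with all 6 samples. High OC samples could not be paired with low OC samples, because the labels give the groups no shared replicate numbers. Depth limits single levels: only 37.5% of the sites had at least 10 reads in every sample.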
